A study of Mus musculus with 2 samples.

Results

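Fibroblast growth factors and their receptors were followed across the cell types of the fetal mouse testis. The 10 genes were found by symbol among the 32285 genes of the deposited RNA matrix: the ligands *Fgf9*, *Fgf7*, *Fgf10*, *Fgf18*, *Fgf2* and *Fgf1*, and the receptors *Fgfr1*, *Fgfr2*, *Fgfr3* and *Fgfr4*. They were chosen by name as a signalling family, when earlier results of these data were already known. The tissue was whole testes of E14.5 mouse embryos (the label gives embryonic age in days) that carried *Nr5a1-cre* and *Rosa-tdTomato*, the young of homozygous *Nr5a1-cre* mice and *Rosa-tdTomato* females that were also homozygous, frozen before nuclei were made. *Nr5a1-cre* acts in steroidogenic and supporting lineages of the gonad, and *Rosa-tdTomato* is a fluorescent reporter that a Cre switches on. All nuclei came from animals with both alleles, there was no second group, and the sources used here do not say how many embryos were combined. RNA and open chromatin were read from the same nuclei by 10x multiome, giving 1 RNA library and 1 ATAC library (ATAC marks open DNA by transposase cuts). With 1 library per assay no test between samples was possible, so every comparison below sets classes of nuclei side by side, with exact 95% intervals, written in parentheses, that cover counting error only.

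FGF ligands bind receptor tyrosine kinases together with heparan sulfate on the cell surface, and the activated receptor signals through an adaptor to RAS and the MAP kinases. The response is held in check by Sprouty, Spred and Dusp proteins, and Etv factors are common targets. In the fetal gonad, FGF9 from the supporting lineage acting on FGFR2 is known to be needed for testis development, while FGF7 and FGF10 are best known as mesenchymal signals to epithelia and FGF18 as a skeletal and lung growth factor. FGF1 and FGF2 lack a classical secretion signal, and FGFR4 is best known for binding hormone-like FGFs in liver.

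Of 9833 barcodes, 7198 nuclei were kept, with 76994664 RNA molecules (UMIs) in all and a median of 7948 UMIs and 4477 ATAC fragments per nucleus. They were clustered with the 10 genes, 80 further FGF pathway genes and the peaks near the 10 genes left out, and each cluster took a name from marker genes. This gave 2272 progenitor-like interstitial nuclei, 1063 contractile-like, 974 germ-like, 835 Sertoli-like, 741 Leydig-like nuclei, with 561 of a surface epithelium-like and 392 of a mesonephric mesenchyme-like class. Smaller classes were endothelial-like (93), supporting-like (86, led by *Pax8*), immune-like (68), pericyte-like (67) and erythroid-like (46). All 6 markers were highest in the named class for Leydig, Sertoli, germ, endothelial, immune, pericyte and erythroid, but 2 of 6 for progenitor and 3 of 6 for contractile. Between those 2 classes few genes were 2-fold apart, 1.89% higher and 4.8% lower in contractile-like nuclei. The count was 4 of 6 for surface epithelium, 3 of 4 for mesonephric mesenchyme and 2 of 4 for supporting, the class whose next best score was for mesonephric tubule markers. One small germ-like cluster of 75 nuclei stood apart in depth, with a median of 33807 UMIs. Markers of other classes were found in every class, at a median between 0.273 and 0.618 of their level over all nuclei. This was taken as an estimate of free RNA, and the level of each gene expected from it is given below as its background. Some of that median may be true expression, so the background is a high estimate. Levels are given as counts-per-million (CPM), a gene's UMIs scaled to the total UMIs of the class. In summed counts, fewer nuclei with a gene and less RNA per nucleus cannot be told apart.

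The members lie on separate places of the GRCm38 genome (GENCODE M21 annotation): *Fgf9* at chr14:58070547-58112720, plus strand, *Fgf10* at chr13:118669791-118792115, plus strand, *Fgf7* at chr2:126034658-126091185, plus strand, *Fgf18* at chr11:33117430-33147400, minus strand, and *Fgf2* at chr3:37348346-37410108, plus strand. The receptors are *Fgfr1* at chr8:25513654-25575718, plus strand, *Fgfr3* at chr5:33721674-33737068, plus strand, *Fgfr4* at chr13:55152640-55168759, plus strand and *Fgfr2* at chr7:130162451-133123350, minus strand. The annotated interval of *Fgfr2* runs far beyond its usual start at position 130266191 and overlaps 48 other genes, and the deposited gene table used the same long model. How many of its UMIs came from that outer stretch was not tested, so its level is uncertain. *Fgf2* overlaps *Fgf2os* and *Nudt6*, *Fgf7* overlaps *Fam227b*, *Fgf10* overlaps *Gm16263*, *Fgf1* overlaps *Gm5820* and *Fgfr1* overlaps *Gm16159*, all on the opposite strand. Transcripts of *Gm43439* also cover parts of *Fgf2*, and those of *Arhgap26* and *AC110730.1* parts of *Fgf1*, on strands not looked up here. The sources used here do not say whether counting used strand. Whether reads of these pairs were kept apart was not tested.

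Promoters of 3 ligands are shown because their RNA was concentrated in 1 or 2 of the larger classes, to set beside the ATAC values given further on, which were counted over a wider window of 1 kb on either side of the start. Each is the 250 bases before the RefSeq start (GRCm38.p6), 5′ to 3′ on the gene's strand. Capitals mark matches, on either strand, to 7 short words known from gonadal and general transcription factors. NR5A1, the steroidogenic factor, was searched as CAAGGTCA. The nuclear receptor half-site was searched as AGGTCA, which also lies inside the NR5A1 word. GATA factors were searched as AGATAA. The SOX family was searched as AACAAT. For TEAD, the Hippo pathway factor, the word was GGAATG. For AP-1, the *Fos* and Jun dimer, it was TGANTCA. An E-box was searched as CAGCTG. *Fgf9* is at chr14:58072436-58072685, *Fgf10* at chr13:118714449-118714698 and *Fgf18* at chr11:33147401-33147650.
Fgf9: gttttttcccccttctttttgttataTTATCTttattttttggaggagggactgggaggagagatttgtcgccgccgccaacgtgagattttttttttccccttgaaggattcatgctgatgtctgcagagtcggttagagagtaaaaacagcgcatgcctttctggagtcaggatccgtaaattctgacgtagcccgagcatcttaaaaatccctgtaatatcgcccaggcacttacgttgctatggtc
Fgf10: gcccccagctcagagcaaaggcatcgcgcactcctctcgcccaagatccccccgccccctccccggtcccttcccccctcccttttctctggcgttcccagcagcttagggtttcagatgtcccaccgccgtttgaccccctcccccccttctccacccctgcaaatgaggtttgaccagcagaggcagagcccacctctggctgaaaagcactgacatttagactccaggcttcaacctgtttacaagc
Fgf18: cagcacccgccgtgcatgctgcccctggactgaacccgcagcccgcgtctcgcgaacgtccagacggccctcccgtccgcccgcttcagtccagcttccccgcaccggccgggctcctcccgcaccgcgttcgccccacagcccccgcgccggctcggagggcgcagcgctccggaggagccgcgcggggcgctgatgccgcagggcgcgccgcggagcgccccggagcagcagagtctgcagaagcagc
The *Fgf9* window held 1 GATA word, which 11.4% of 27025 RefSeq promoters of 300 bases also held, and the windows of *Fgf10* and *Fgf18* held none of the 7 words. The promoters differed in composition: over 300 bases, GC content was 42.7% at *Fgf9*, above 16.3% of genes, 60.7% at *Fgf10* and 78.7% at *Fgf18*, above 98.5% of genes. RefSeq promoters also matched *Fgf7*, *Fgf2*, *Fgfr2*, *Fgfr3* and *Fgfr4*.

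*Fgf9*, the testis-promoting ligand, was highest in the supporting-like nuclei led by *Pax8* and in the surface epithelium-like nuclei. Supporting-like nuclei had 155 CPM (133 to 181) and surface epithelium-like nuclei 144 CPM (134 to 154), levels whose intervals overlapped. Sertoli-like nuclei, the cells that line the cords, came next with 28 CPM (24.8 to 31.4), apart from both, against a background of 7.41 CPM. No other class passed its background beyond counting error: immune-like nuclei had 20.5 CPM (11.2 to 34.4), endothelial-like 7.02, germ-like 5.65, Leydig-like 4.05, mesonephric mesenchyme-like 2.57, contractile-like 1.98, pericyte-like 1.46 and progenitor-like 0.955 CPM, and erythroid-like nuclei had no UMI. Of 1459 *Fgf9* UMIs, 54.2% came from surface epithelium-like, 19.1% from Sertoli-like and 11.7% from supporting-like nuclei. Against all other kept nuclei the ratio was 15.4-fold (13.9 to 17.1) in surface epithelium-like, 9.16-fold (7.76 to 10.7) in supporting-like and 1.59-fold (1.39 to 1.81) in Sertoli-like nuclei.

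*Fgf10*, a mesenchymal ligand that signals chiefly through FGFR2, was highest in the interstitial progenitors. Progenitor-like nuclei had 90.8 CPM (86.4 to 95.3) and held 51.7% of 3125 UMIs. Surface epithelium-like nuclei followed with 76.1 CPM (69 to 83.7), below the progenitor-like interval. Pericyte-like, mesonephric mesenchyme-like and contractile-like nuclei had 58.3 CPM (41.6 to 79.3), 44.7 CPM (37.6 to 52.8) and 39 CPM (34.4 to 44.1), neighbours that overlapped. Immune-like, supporting-like and endothelial-like nuclei had 29.3, 23.6 and 18.9 CPM and were not above background beyond counting error. Leydig-like nuclei had 21.7 CPM (18.6 to 25.1) against a background of 13.5, whereas germ-like nuclei at 14.3 and Sertoli-like nuclei at 9.15 CPM lay below theirs. The ratio to all other nuclei was 3.56-fold (3.32 to 3.82) in progenitor-like and 2.01-fold (1.81 to 2.23) in surface epithelium-like nuclei. The second sat at the 2-fold line and fell to between 1.74 and 1.97 under 4 other settings, the lowest with stricter minimums on nuclei.

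*Fgf2*, a ligand held by heparan sulfate in the matrix, was spread over the mesenchymal and surface classes. Surface epithelium-like nuclei had 91.7 CPM (83.9 to 100.1), contractile-like 79.6 CPM (72.9 to 86.7) and mesonephric mesenchyme-like 68.2 CPM (59.3 to 78), each overlapping its neighbour in that order. Progenitor-like nuclei were below them at 45.2 CPM (42.2 to 48.5), and pericyte-like nuclei at 42.2 CPM (28.3 to 60.7). Endothelial-like, supporting-like, immune-like and erythroid-like nuclei had 26.3, 24.5, 19 and 2.46 CPM. Sertoli-like, Leydig-like and germ-like nuclei had 14.2, 10.4 and 9.85 CPM, and none of these 7 classes was above background beyond counting error. Ratios to the rest were 3.12-fold (2.83 to 3.44), 2.69-fold (2.44 to 2.97) and 2.11-fold (1.82 to 2.42) in the 3 highest classes. The last fell to between 1.69 and 1.75 under 3 other settings.

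*Fgf1* (chr18:38838673-38929472, minus strand), which binds all FGF receptors, had 455 UMIs and was highest in the classes where *Fgf9* was highest. Supporting-like nuclei had 33.6 CPM (23.7 to 46.3) and surface epithelium-like nuclei 21.1 CPM (17.4 to 25.3), with overlapping intervals. Pericyte-like and mesonephric mesenchyme-like nuclei had 14.6 CPM (6.98 to 26.8) and 13.5 CPM (9.74 to 18.3), endothelial-like nuclei had 7.46 CPM (4.35 to 11.9), and immune-like and erythroid-like nuclei had no UMI. Progenitor-like, Sertoli-like, Leydig-like, germ-like and contractile-like nuclei lay between 2.43 and 4.44 CPM. Ratios to the rest were 6.11-fold (4.24 to 8.55), 4.45-fold (3.57 to 5.51), 2.5-fold (1.19 to 4.64) and 2.42-fold (1.72 to 3.33) in these 4 leading classes. Without the smaller of the 2 surface epithelium-like clusters (88 nuclei) the surface ratio became 1.29-fold, and with clusters from RNA alone the mesonephric mesenchyme ratio was 1.99-fold.

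The remaining ligands were sparse. *Fgf18* had 193 UMIs, of which 40.9% were in Sertoli-like and 25.9% in surface epithelium-like nuclei. Their levels of 7.94 CPM (6.29 to 9.9) and 9.1 CPM (6.75 to 12) overlapped, and no other class was above its background beyond counting error. The ratio to the rest was 4.67-fold (3.46 to 6.28) in Sertoli-like and 4.55-fold (3.23 to 6.32) in surface epithelium-like nuclei. *Fgf7*, a ligand for the epithelial form of FGFR2, had 221 UMIs. Its levels in surface epithelium-like, progenitor-like, Leydig-like and contractile-like nuclei, 4.73 CPM (3.09 to 6.93), 4.44 CPM (3.52 to 5.53), 4.4 CPM (3.1 to 6.07) and 4.25 CPM (2.83 to 6.15), could not be told apart. Sertoli-like, mesonephric mesenchyme-like, immune-like, germ-like and endothelial-like nuclei had 1.91, 1.61, 1.46, 1.07 and 0.878 CPM, erythroid-like nuclei had 2 UMIs, supporting-like and pericyte-like nuclei had no *Fgf7* UMI, and no class reached 2-fold over the rest.

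Among the receptors, *Fgfr1*, which is common in mesenchyme, was highest in mesonephric mesenchyme-like and contractile-like nuclei. Mesonephric mesenchyme-like nuclei had 198 CPM (183 to 214) and contractile-like nuclei 180.0 CPM (169.9 to 191), which overlapped. Surface epithelium-like and progenitor-like nuclei were lower at 119.9 CPM (111 to 129) and 108 CPM (103 to 113), and endothelial-like nuclei had 92.6 CPM (80.5 to 106). Pericyte-like, supporting-like, immune-like and erythroid-like nuclei had 68.5, 59.98, 49.8 and 19.7 CPM. Germ-like nuclei had 41.3 CPM (38.5 to 44.2) against a background of 33.4, and Leydig-like and Sertoli-like nuclei, at 28.1 CPM (24.6 to 31.9) and 26.1 CPM (23.1 to 29.5), were not above theirs of 26.2 and 31. Ratios to the rest were 2.67-fold (2.46 to 2.91) and 2.58-fold (2.42 to 2.75) in the leading classes.

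*Fgfr2*, the receptor through which FGF9 acts on the early testis, showed a different order. Supporting-like nuclei had 1697 CPM (1621 to 1775), far above every other class. Leydig-like nuclei, the androgen-producing cells, were next at 576 CPM (559.7 to 592), followed by mesonephric mesenchyme-like 436 CPM (413 to 460.1), contractile-like 346 CPM (332 to 361) and germ-like 282 CPM (275 to 289), each interval clear of the one above it. Erythroid-like, pericyte-like, immune-like and endothelial-like nuclei had 187, 191, 196 and 229 CPM. Progenitor-like and surface epithelium-like nuclei overlapped at 265 CPM (257 to 272) and 259 CPM (246 to 273). Sertoli-like nuclei had 187 CPM (178 to 196), the lowest value, which overlapped the erythroid-like, pericyte-like and immune-like levels and lay above their background of 127. The ratio to the rest was 5.57-fold (5.31 to 5.84) in supporting-like and 1.96-fold (1.9 to 2.02) in Leydig-like nuclei, the latter just short of 2-fold. Of 24971 UMIs, 23.1% came from germ-like, 19.4% from Leydig-like and 18.9% from progenitor-like nuclei.

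*Fgfr4* was highest in interstitial classes. Progenitor-like nuclei had 31.8 CPM (29.2 to 34.5) and contractile-like nuclei 29.2 CPM (25.2 to 33.6), which overlapped, and Leydig-like nuclei came next at 21 CPM (18 to 24.3), clear of both neighbours. Every other class had at most 9.997 CPM and none was above background beyond counting error. *Fgfr3*, with 429 UMIs, was found in contractile-like nuclei at 12.2 CPM (9.64 to 15.1), progenitor-like at 10.5 CPM (9.06 to 12.1) and surface epithelium-like at 8.19 CPM (5.97 to 11), neighbours that overlapped. Endothelial-like, pericyte-like and mesonephric mesenchyme-like nuclei had 6.14, 5.83 and 4.5 CPM, the other classes at most 2.24 CPM, and none of these was above background beyond counting error. FGFR3 is best known as a brake on bone growth. Ratios to the rest in progenitor-like nuclei were 2.97-fold (2.64 to 3.33) for *Fgfr4* and 2.57-fold (2.11 to 3.12) for *Fgfr3*, and in contractile-like nuclei 2.04-fold (1.74 to 2.38) and 2.45-fold (1.9 to 3.13). At the coarser clustering of resolution 0.3 the progenitor ratios were 1.76 and 1.76, and the contractile ratio of *Fgfr4* fell under 2-fold in 4 settings, to 1.5 with clusters from ATAC alone, as did that of *Fgfr3* in 2, to 1.75.

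**Figure D1:**
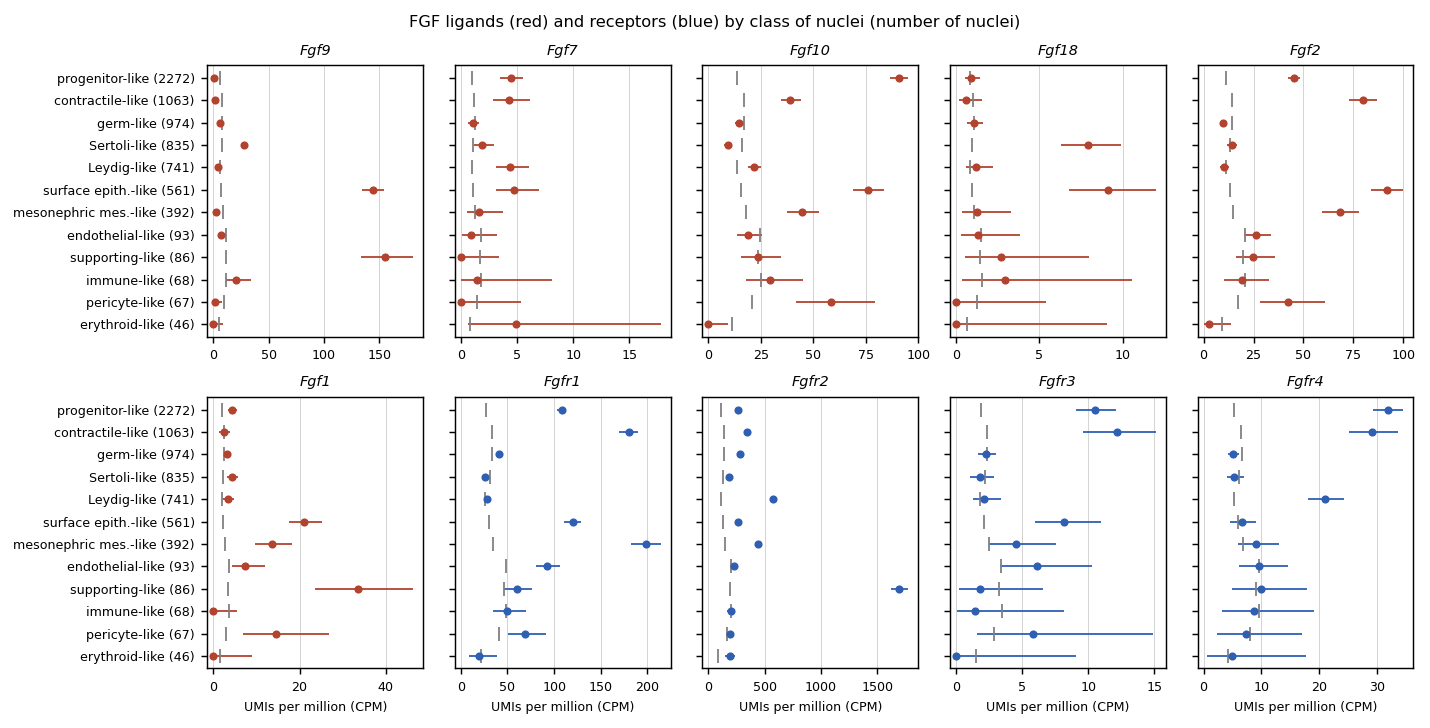
Levels of the 6 ligands (red) and 4 receptors (blue) in 12 classes of nuclei, in counts-per-million (CPM, linear axes that differ between genes), with bars for exact 95% counting intervals and grey ticks for the level expected from free RNA. Fgf9 peaks in supporting-like and surface epithelium-like nuclei, Fgf10 in progenitor-like nuclei and Fgfr4 in progenitor-like and contractile-like nuclei. Fgfr1 peaks in mesonephric mesenchyme-like and contractile-like nuclei and Fgfr2 in supporting-like nuclei.

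All 10 members had the 50 UMIs needed for a ratio, and a gene was called higher in a class at 2-fold or more over all other kept nuclei. Surface epithelium-like nuclei had 5 members higher (*Fgf9*, *Fgf10*, *Fgf18*, *Fgf2* and *Fgf1*), all of them ligands, where 5.95% of 17046 genes were higher. This class joined 2 clusters, described below, that differed in some of these ligands. *Fgf1* was 6.12 CPM in the larger and 95.3 CPM in the smaller, and *Fgf10* was 87.5 and 19.5 CPM. Contractile-like nuclei had 4 (*Fgf2*, *Fgfr1*, *Fgfr3* and *Fgfr4*) against 3.86% of genes, and progenitor-like nuclei 3 (*Fgf10*, *Fgfr3* and *Fgfr4*) against 4.8%. Mesonephric mesenchyme-like nuclei had 3 (*Fgf2*, *Fgf1* and *Fgfr1*) against 5.0%, and supporting-like nuclei 3 (*Fgf9*, *Fgf1* and *Fgfr2*) against 8.15%. Sertoli-like nuclei had 1 (*Fgf18*) against 8.25% and pericyte-like nuclei 1 (*Fgf1*) against 7.0%. Leydig-like nuclei had 0, where 7.88% of genes were higher, and germ-like nuclei 0, where 18.2% were. In germ-like nuclei 9 of 10 members, all but *Fgfr2*, were 2-fold or more below the rest, where 20.9% of genes were. In the same class 6 of 10 members were at or below background, a count that was not made over all genes. In Sertoli-like nuclei 5 were 2-fold or more lower (*Fgf10*, *Fgf2*, *Fgfr1*, *Fgfr3* and *Fgfr4*), where 23.1% of genes were, and in Leydig-like nuclei 5 (*Fgf9*, *Fgf18*, *Fgf2*, *Fgfr1* and *Fgfr3*), where 26.4% were. Contractile-like nuclei had 3 lower (*Fgf9*, *Fgf18* and *Fgf1*) against 22.4% of genes, progenitor-like nuclei 2 (*Fgf9* and *Fgf18*) against 22.2% and supporting-like nuclei 2 (*Fgf7* on 0 UMIs and *Fgfr3* on 2, with intervals of the ratio that held 1) against 22.5%. Mesonephric mesenchyme-like nuclei had 1 lower (*Fgf9*) against 23.2%, and surface epithelium-like nuclei 1 (*Fgfr4*) against 20.5%. Pericyte-like nuclei had 4 lower (*Fgf9*, *Fgf7*, *Fgf18* and *Fgfr4*) against 27.5%, where all ratio intervals but that of *Fgf9* held 1. The median log2 ratio of the 6 ligands was 1.68 in surface epithelium-like nuclei, where the median of all genes was -0.20. That of the 4 receptors was 1.06 in contractile-like nuclei, with -0.18 for all genes.

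The comparison between progenitor-like and Leydig-like nuclei, the interstitial cell types that the study addressed, separated 6 of the 9 members with enough UMIs. *Fgf10* was 4.19-fold (3.59 to 4.91) higher in progenitor-like nuclei, *Fgf2* 4.37-fold (3.5 to 5.51), *Fgfr1* 3.85-fold (3.36 to 4.43) and *Fgfr3* 4.9-fold (3.02 to 8.46), from the levels given above. Such a fold was seen for 15.4% of 13302 genes. *Fgfr2* went the other way and was 2.18-fold (2.09 to 2.26) higher in Leydig-like nuclei, as was *Fgf9* at 4.24-fold (2.3 to 8.09), although both *Fgf9* levels lay under background. A fold in this direction was seen for 11.9% of genes. *Fgfr4* was 1.52-fold (1.28 to 1.81), *Fgf1* 1.33-fold (0.856 to 2.13) and *Fgf7* 1.01-fold (0.674 to 1.53) in progenitor-like over Leydig-like nuclei, all short of 2-fold, and the intervals of *Fgf1* and *Fgf7* held 1. *Fgf18* had too few UMIs to compare. On clusters made from ATAC alone the ratios of *Fgfr2* and *Fgf9* moved to 0.518 and 0.643, short of 2-fold.

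Within the cords, 2 of 9 members, both ligands, were 2-fold apart between Sertoli-like and germ-like nuclei. Sertoli-like nuclei were 4.94-fold (3.97 to 6.19) higher for *Fgf9* and 7.41-fold (4.57 to 12.5) for *Fgf18*, folds seen for 13.4% of 14790 genes. Of the other 7 members with enough UMIs none reached 2-fold in either direction, where 19.9% of genes were 2-fold lower. *Fgfr1* and *Fgfr2* stood at 0.633-fold (0.549 to 0.729) and 0.663-fold (0.629 to 0.699) of the germ-like level, and *Fgfr4* at 1.051-fold (0.741 to 1.48). *Fgf10*, *Fgf2*, *Fgfr3* and *Fgfr4* were not above background in either class. The count of 2 members became 6 with background subtracted, leaving out members at 0 in both classes, and 4 or 5 under 4 other alternatives at the same fold. Without the deep germ-like cluster of 75 nuclei, *Fgf2* at 2.28 and *Fgfr4* at 2.27 also passed 2-fold. Contractile-like and progenitor-like nuclei differed by 2-fold in 1 of 8 members, *Fgf10*, which was 2.32-fold (2.04 to 2.66) higher in progenitor-like nuclei, as were 4.8% of 12892 genes, while 0 members and 1.89% of genes were 2-fold higher in contractile-like nuclei. *Fgf2* and *Fgfr1* were 1.76-fold (1.57 to 1.97) and 1.66-fold (1.55 to 1.79) in contractile-like over progenitor-like nuclei, and the intervals of *Fgfr3* and *Fgfr4* held 1.

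**Figure D2:**
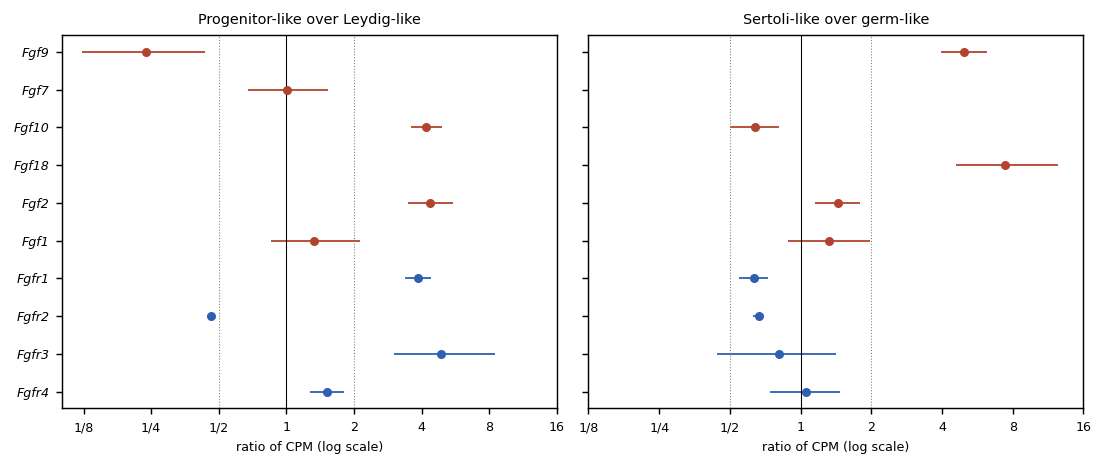
Ratios of CPM on a log axis, with exact 95% counting intervals, for the members with at least 50 UMIs over both classes (ligands red, receptors blue). On the left, Fgf10, Fgf2, Fgfr1 and Fgfr3 lie beyond the dotted 2-fold line towards progenitor-like nuclei and Fgfr2 and Fgf9 towards Leydig-like nuclei. On the right, Fgf9 and Fgf18 lie beyond it towards Sertoli-like nuclei.

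Members also differed between clusters of some classes. The surface epithelium-like class held a larger cluster of 473 nuclei and a smaller one of 88 led by *Mybpc1*, *Gpm6a*, *Dpp4* and *Muc16*. *Fgf9* was 291 CPM (258 to 328) in the smaller and 114 CPM (105 to 124) in the larger, and *Fgf18* was 24.9 CPM (15.8 to 37.4) and 5.91 CPM (3.89 to 8.59). The widest gap was in *Fgf1*, with 95.3 CPM (76.5 to 117) against 6.12 CPM (4.07 to 8.85), 15.6-fold (10.1 to 24.7). *Fgf10* went the other way, at 87.5 CPM (79.1 to 96.5) in the larger and 19.5 CPM (11.6 to 30.8) in the smaller, and *Fgf2* did not differ beyond counting error at 92.3 CPM (83.7 to 102) and 88.8 CPM (70.7 to 110.3). Of the 7 members compared, 3 were thus higher in the smaller cluster (3.32% of 9318 genes) and 1 in the larger (4.41%). *Mki67*, a marker of dividing cells, was alike in both, 219 CPM (206 to 233) and 208 CPM (179.6 to 239.6).

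Of the Sertoli-like nuclei, 256 formed a cycling cluster with *Mki67* at 370.1 CPM (352 to 389), against 67 CPM (60.4 to 74.2) in the other 579. *Fgf9* was 15.1 CPM (11.7 to 19.2) in the cycling and 38 CPM (33 to 43.5) in the other cluster, a 2.51-fold (1.9 to 3.36) difference in a direction seen for 1.42% of genes, and *Fgf18* was 5.27 CPM (3.34 to 7.91) and 10.03 CPM (7.58 to 13). *Fgf10*, *Fgfr1* and *Fgfr4* were higher in the cycling cluster, at 7.67-fold (4.24 to 15.1), 2.93-fold (2.24 to 3.87) and 2.29-fold (1.27 to 4.25), folds seen for 5.85% of 11065 genes. Over all classes these 3 genes were highest in progenitor-like or mesonephric mesenchyme-like nuclei, and the median depth of the cycling cluster was 14032 UMIs against 8805. The part of free RNA or of joined nuclei in these values was not tested.

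In progenitor-like nuclei, 765 were cycling, with *Mki67* at 623 CPM (606 to 641) against 89.6 CPM (83.8 to 95.7), and none of 8 members differed by 2-fold from the other 1507, where 5.14% of genes were higher and 2.15% lower. *Fgf10* and *Fgfr4* were lower in the cycling nuclei, at 78 CPM (71.9 to 84.4) against 101 CPM (94.8 to 107) and 25.3 CPM (21.9 to 29.1) against 37 CPM (33.3 to 41), while *Fgfr1* was higher at 124 CPM (116 to 132) against 95.8 CPM (89.8 to 102). In germ-like nuclei *Fgfr2* was 1.46-fold (1.38 to 1.55) higher in the cycling cluster of 272 nuclei, at 379 CPM (360.3 to 399), than in the others. *Fgf9*, *Fgf10*, *Fgf2* and *Fgfr4* were 2-fold or more lower there, as were 15.2% of 13768 genes, and 0 members were 2-fold higher, as were 4.21%. Against the larger germ-like cluster of 627 nuclei alone, without the deep cluster of 75, *Fgf10* was 3.89 CPM (2.18 to 6.41) against 13.6 CPM (11.6 to 15.9), but *Fgf9* was 3.11 CPM (1.61 to 5.43) against 4.8 CPM (3.63 to 6.21), *Fgf2* 4.67 CPM (2.77 to 7.37) against 6.73 CPM (5.34 to 8.38) and *Fgfr4* 1.81 CPM (0.73 to 3.74) against 2.52 CPM (1.7 to 3.6), all 3 short of 2-fold. Levels of these 4 genes in the whole germ-like class were not above background. Between the clusters of endothelial-like nuclei 0 of 3 members (*Fgf2*, *Fgfr1* and *Fgfr2*) were 2-fold apart, where 3.52% of 6649 genes were higher and 2.84% lower in the cluster with more *Mki67*.

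**Figure D3:**
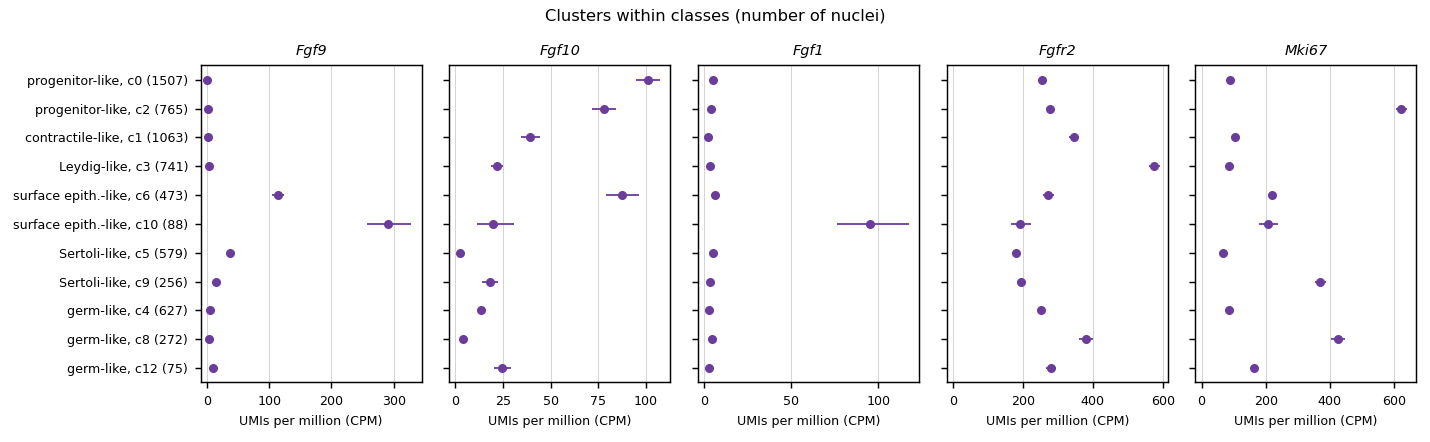
Levels of Fgf9, Fgf10, Fgf1, Fgfr2 and the division marker Mki67 in the clusters of the larger classes, in CPM with exact 95% counting intervals. The smaller surface epithelium-like cluster (88 nuclei) is highest for Fgf9 and Fgf1 and low for Fgf10. The cycling Sertoli-like cluster (256 nuclei) has less Fgf9 than its sister cluster.

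Shares of nuclei with at least 1 UMI were taken after thinning every nucleus to 2000 UMIs, which left out 75 shallower nuclei. *Fgfr2* was seen in 91.9% (83.9 to 96.7) of supporting-like, 67.4% (63.9 to 70.8) of Leydig-like and 26.1% (23.1 to 29.2) of Sertoli-like nuclei, against 100%, 96.4% and 75.6% before thinning. *Fgf9* was seen in 24.4% (15.8 to 34.9) of supporting-like, 20.5% (17.2 to 24.1) of surface epithelium-like and 4.45% (3.15 to 6.08) of Sertoli-like nuclei, against 0.0443% (0.00112 to 0.247) of progenitor-like nuclei, whose level lay below background. *Fgf10* was seen in 14.9% (13.4 to 16.4) of progenitor-like and 11.7% (9.14 to 14.7) of surface epithelium-like nuclei, against 0.601% (0.195 to 1.4) of Sertoli-like nuclei. *Fgfr1* was seen in 34.3% (29.6 to 39.2) of mesonephric mesenchyme-like and 30.8% (28 to 33.8) of contractile-like nuclei, against 2.64% (1.66 to 3.98) of Sertoli-like nuclei. Median depths before thinning were 6748.5 UMIs in progenitor-like, 9856 in Sertoli-like, 9798 in Leydig-like and 10325 in supporting-like nuclei. Thinned shares moved with the depth chosen.

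Receptors and ligands were also read in the same nucleus after thinning. *Fgfr1* and *Fgfr2* were both seen in 18.2% (14.46 to 22.3) of mesonephric mesenchyme-like nuclei, where the product of their single shares was 17%, and in 13.9% (11.8 to 16.2) of contractile-like nuclei, with a product of 13.6%. In progenitor-like nuclei the values were 6.82% (5.82 to 7.94) and 7.05%. In these 3 classes the product lay within the interval of the observed share. For most pairs of a ligand and a receptor the product came to under 3 nuclei, too few for such a reading.

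The promoters of *Fgf10* and *Fgfr3* had class intervals that did not meet under each of 3 settings, and those of other members under fewer. ATAC fragments within 1 kb of the start site were counted in classes made from RNA alone and scaled to all fragments of the class, as fragments-per-million (FPM). In that clustering 2 of the larger classes stayed unnamed, 1 of 1116 nuclei led by *Col4a4* and *Myh11* and 1 of 525 nuclei led by *Lhx1*. The *Fgf9* promoter had 11.7 FPM (7.92 to 16.8; 30 fragments) in surface epithelium-like, 7.89 FPM (5.5 to 11) in Sertoli-like, 12.6 FPM (8.93 to 17.2) in Leydig-like and 7.41 FPM (5.93 to 9.14) in progenitor-like nuclei, and these intervals overlapped. The *Fgf18* promoter, the most GC-rich of those printed above, had between 13.1 and 18.2 FPM in all 8 classes of at least 300 nuclei, with overlapping intervals. The *Fgf10* promoter had 7.32 FPM (5.86 to 9.04; 86 fragments) in progenitor-like and 2.44 FPM (1.22 to 4.36; 11 fragments) in germ-like nuclei, of which this clustering named 449. With all 974 germ-like nuclei of the classes from both assays the values were 7.33 FPM (5.87 to 9.04; 87 fragments) and 3.87 FPM (2.61 to 5.52; 30 fragments), and neither pair of intervals met. Within 500 bp the unnamed class led by *Lhx1* had 4.0 FPM (2.13 to 6.84; 13 fragments) at *Fgf10*. Progenitor-like nuclei had 5.36 FPM (4.12 to 6.86) and named germ-like nuclei 1.33 FPM (0.488 to 2.89), and the *Lhx1* class met both intervals. Whether the nuclei of that class were the rest of the 974 was not tested. The *Fgfr3* promoter was most open in progenitor-like nuclei at 21.1 FPM (18.6 to 23.9), against 11.5 FPM (8.56 to 15.1) in Sertoli-like nuclei, with intervals apart. With classes from both assays, surface epithelium-like nuclei at 19.2 FPM (14.1 to 25.6) overlapped progenitor-like nuclei at 21.3 FPM (18.8 to 24.1). Contractile-like nuclei, whose *Fgfr3* RNA overlapped the progenitor-like level, had 13.6 FPM (10.5 to 17.4), apart from the progenitor-like interval. The *Fgfr2* promoter had 15.9 FPM (13.7 to 18.4) in progenitor-like and 10.1 FPM (7.4 to 13.6) in Sertoli-like nuclei, with intervals apart. Within 500 bp the *Fgfr2* intervals met, at 12.6 FPM (10.7 to 14.8) and 9.24 FPM (6.63 to 12.5). In Leydig-like nuclei the *Fgfr2* promoter had 17.7 FPM (13.3 to 23), which overlapped the Sertoli-like interval. In these classes, with this window, 4 of 10 members (*Fgf10*, *Fgfr2*, *Fgfr3* and *Fgfr4*) had at least 1 pair of intervals that did not meet. With the classes from both assays there were 7, the same 4 and *Fgf9*, *Fgf7* and *Fgfr1*, and with 500 bp on either side there were 2, *Fgf10* and *Fgfr3*. The share of all promoters with such a pair was not counted, so these counts have no background to be set against. The *Fgfr1* promoter ranged from 14 to 22.5 FPM.

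Of the members and these 8 classes, 1 combination reached 2-fold over the rest, *Fgf7* in mesonephric mesenchyme-like nuclei with 8 fragments, 2.07-fold (0.867 to 4.28), where 1.31% of 15145 promoters did. In surface epithelium-like nuclei 0 of 10 members did, against 1.64% of promoters, in Sertoli-like 0 against 2.17%, in Leydig-like 0 against 1.41%, in progenitor-like 0 against 0.561% and in germ-like 0 against 4.17%. The unnamed classes also had 0, against 0.343% in the class led by *Col4a4* and 5.65% in that led by *Lhx1*. Over the 8 classes, Pearson's r between log2 promoter fragments and log2 RNA ran from -0.16 for *Fgfr1* to 0.75 for *Fgfr4*, a description over points that share 1 library and differ in depth. The *Fgf1* and *Fgf7* promoters had as few as 2 and 4 fragments in a class, so that a 2-fold difference could lie within counting error there. With classes from both assays, these 2 promoters had 2 ratios with intervals that did not hold 1. *Fgf7* was 0.374-fold (0.156 to 0.772; 8 fragments) in germ-like nuclei. *Fgf1* was 2.01-fold (1.03 to 3.65; 14 fragments) in Sertoli-like nuclei. Promoters of other members had such ratios too. Among them, *Fgfr3* was 1.52-fold (1.29 to 1.79) in progenitor-like and 0.613-fold (0.442 to 0.831) in Sertoli-like nuclei.

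**Figure D4:**
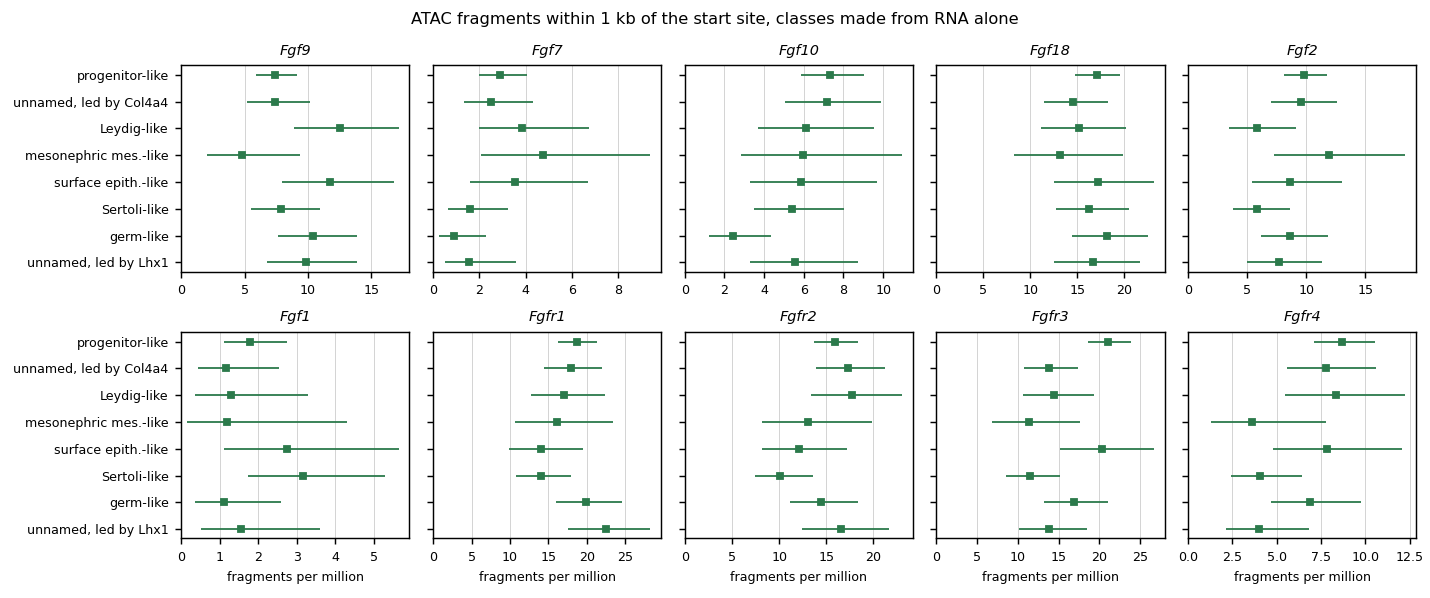
ATAC fragments within 1 kb of each start site, in fragments-per-million of the class, in the 8 classes of at least 300 nuclei made from RNA alone, with exact 95% counting intervals on linear axes from 0. Most intervals overlap within a gene. The Fgf10 promoter is lower in the 449 nuclei named germ-like in this clustering than in progenitor-like nuclei.

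Peaks away from the promoters were read within 50 kb of each gene. For each member, the peak with the largest ratio in the class of highest RNA was taken, so the ratios below were chosen for their size and only describe. The *Fgf18* peak at chr11:33074946-33075826, an intron of the noncoding gene *Gm12114* beyond the end of *Fgf18*, had 10.2 FPM against 1.04 in the rest, 9.81-fold (5.71 to 16.6), with 26 of all 63 fragments in surface epithelium-like nuclei. The *Fgf2* peak at chr3:37353664-37354572, in an intron shared by *Fgf2* and *Gm43439*, 5465 bases after the start, had 10.2 FPM against 1.68 in the rest, 6.05-fold (3.67 to 9.74), with 26 of all 86 fragments in the same class. The *Fgf10* peak at chr13:118739897-118740804, in an intron 25651 bases after the start, had 4.94 FPM against 1.7 in the rest, 2.91-fold (1.94 to 4.39), with 58 of all 103 fragments in progenitor-like nuclei. The *Fgfr4* peak at chr13:55163313-55164195, in an intron 11114 bases after the start, had 5.96 FPM against 2.6 in the rest, 2.29-fold (1.62 to 3.24), with 70 of all 139 fragments in progenitor-like nuclei, and the *Fgfr1* peak at chr8:25546612-25547606, also intronic, 18.5 FPM against 9.41 in the rest, 1.96-fold (1.31 to 2.84), with 31 of all 375 fragments in mesonephric mesenchyme-like nuclei. By transposase cuts, the *Fgfr1* peak was higher in progenitor-like nuclei, 2.1-fold over the rest with 376 of 737 cuts, than in mesonephric mesenchyme-like nuclei at 1.85-fold, while progenitor-like nuclei had less of its RNA. *Fgf18* RNA in Sertoli-like nuclei overlapped the surface epithelium-like level. In Sertoli-like nuclei a peak in an intron of *Fgf18*, 4289 bases after the start, was 7.96-fold over the rest, with 115 of 229 cuts. Another *Fgf18* intron peak, 28633 bases after the start, was 9.53-fold over the rest in the unnamed class led by *Lhx1*. It had 63 of 150 cuts there, although *Fgf18* RNA in that class was 0.639 CPM. For *Fgfr3*, the peak upstream of the gene, between genes, had 4.86 FPM against 1.72 in the rest, 2.82-fold (1.69 to 4.59), with 25 of all 82 fragments in the unnamed class led by *Col4a4*. For *Fgf9*, *Fgf7*, *Fgf1* and *Fgfr2* the class of highest RNA was small and held 1 to 3 fragments at the peak, too few to describe. The peaks of 4 members are printed as their central 300 bases (GRCm38, plus strand), with the same 7 words in capitals: *Fgf18* chr11:33075236-33075535, *Fgf2* chr3:37353968-37354267, *Fgf10* chr13:118740200-118740499 and *Fgfr4* chr13:55163604-55163903.
Fgf18 peak: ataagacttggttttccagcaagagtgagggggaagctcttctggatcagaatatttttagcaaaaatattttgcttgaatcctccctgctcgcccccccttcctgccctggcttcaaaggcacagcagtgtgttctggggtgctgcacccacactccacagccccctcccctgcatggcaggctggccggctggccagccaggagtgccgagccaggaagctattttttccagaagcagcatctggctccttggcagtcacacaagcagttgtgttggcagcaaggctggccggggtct
Fgf2 peak: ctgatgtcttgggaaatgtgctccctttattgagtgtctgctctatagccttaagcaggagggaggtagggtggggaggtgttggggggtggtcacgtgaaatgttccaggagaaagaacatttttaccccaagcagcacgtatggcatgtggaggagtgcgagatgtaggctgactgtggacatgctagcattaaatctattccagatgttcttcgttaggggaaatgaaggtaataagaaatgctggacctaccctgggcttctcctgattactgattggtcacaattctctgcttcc
Fgf10 peak: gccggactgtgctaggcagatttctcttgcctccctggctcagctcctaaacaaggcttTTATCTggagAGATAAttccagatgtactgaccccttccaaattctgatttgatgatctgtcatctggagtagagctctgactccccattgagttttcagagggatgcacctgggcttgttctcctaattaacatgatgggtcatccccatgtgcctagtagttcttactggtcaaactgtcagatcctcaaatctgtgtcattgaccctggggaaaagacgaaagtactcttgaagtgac
Fgfr4 peak: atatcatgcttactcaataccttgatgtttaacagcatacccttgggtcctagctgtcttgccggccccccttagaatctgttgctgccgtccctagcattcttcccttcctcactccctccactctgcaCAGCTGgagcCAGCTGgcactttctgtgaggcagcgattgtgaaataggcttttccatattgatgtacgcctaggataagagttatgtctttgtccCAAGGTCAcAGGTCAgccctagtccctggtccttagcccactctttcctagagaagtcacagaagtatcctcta
Neither surface epithelium-like peak held any of the 7 words. The *Fgf10* peak held 2 GATA words in opposite directions, and 17.3% of 109183 peaks held at least 1 in their central 300 bases. The *Fgfr4* peak held 1 NR5A1 word, found in 6.19% of peaks, followed after 1 base by a further nuclear receptor half-site, and 2 E-boxes. At least 1 half-site, counting those inside NR5A1 words, was found in 22.5% of peaks, and at least 1 E-box in 27.3%. The shares of peaks with 2 were not counted. A match describes letters and not binding.

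The rest of the pathway was read from lists chosen by name, over the 7 classes of at least 300 nuclei and with the same 2-fold line. Of 17 genes of the intracellular relay, such as *Frs2*, *Grb2* and *Sos1*, 0 were 2-fold higher and 0 were 2-fold lower in any class, where between 3.86% and 18.2% of all genes were higher and between 20.5% and 26.4% lower. The largest ratios were *Gab1* in Sertoli-like nuclei, 353 CPM against 184 in the rest, 1.92-fold (1.85 to 1.99), *Grb2* in germ-like nuclei, 1.9-fold (1.82 to 1.99), and *Map2k1* in Sertoli-like nuclei, 1.84-fold (1.73 to 1.95). Its median log2 ratios ran from -0.20 in progenitor-like to 0.13 in Sertoli-like nuclei.

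Targets and feedback inhibitors differed between classes. Of 6 response factors with enough UMIs, *Etv4* and *Etv5*, ETS factors induced by FGF signalling, were higher in germ-like and Sertoli-like nuclei, where 18.2% and 8.25% of all genes were. *Etv5* was 80.2 CPM against 29.2 in the rest, 2.75-fold (2.56 to 2.94), in germ-like nuclei and 2.68-fold (2.48 to 2.89) in Sertoli-like nuclei, and *Etv4* was 3.88-fold (3.17 to 4.76) and 2.31-fold (1.82 to 2.9). Both were 2-fold or more lower in each of the other 5 classes, where between 20.5% and 26.4% of all genes were, with *Etv5* at 12.5 CPM in Leydig-like and 14.3 CPM in progenitor-like nuclei. *Egr1* was 0.447-fold (0.334 to 0.59) in germ-like nuclei and 0.364-fold (0.213 to 0.582) in Leydig-like nuclei, where *Ccnd1* was 0.267-fold (0.114 to 0.534). Thus 4 of 6 were lower in Leydig-like nuclei, beside 26.4% of all genes. In surface epithelium-like nuclei 4 of 6 were also lower (*Etv1*, *Etv4*, *Etv5* and *Egr1*), beside 20.5% of all genes. The list median was 0.01 in germ-like, 0.64 in Sertoli-like and -1.18 in Leydig-like nuclei, beside 0.04, -0.11 and -0.21 for all genes. *Myc* was 2-fold lower in Sertoli-like nuclei on 3 UMIs, with an interval of the ratio that held 1, and 2-fold higher in Leydig-like nuclei on 12 UMIs. Of 12 feedback inhibitors with enough UMIs, 3 were higher in Leydig-like nuclei, where 7.88% of all genes were: *Dusp4*, a nuclear MAP kinase phosphatase, at 21.3 CPM against 2.87 in the rest, 7.42-fold (6.03 to 9.13), *Dusp5* at 2.78-fold (1.95 to 3.9) and *Spred3* at 2.2-fold (1.65 to 2.9). *Dusp6* and *Spry4* were higher in Sertoli-like nuclei (8.25% of all genes), at 2.32-fold (1.83 to 2.92) and 2.5-fold (1.98 to 3.13), and *Spry1* and *Dusp4* were 2-fold or more lower there (23.1%). *Spry1* was higher in progenitor-like nuclei (4.8%) at 2.12-fold (1.78 to 2.52), and *Dusp5* and *Dusp6* were lower (22.2%). In germ-like nuclei *Il17rd*, which dampens FGF receptors, was higher (18.2%) at 3.43-fold (3.29 to 3.59), and *Spred3* was lower (20.9%). *Spry1*, *Spry2*, *Spry4* and *Il17rd* were 2-fold or more lower in Leydig-like nuclei, as were 26.4% of all genes. The medians of the inhibitor list were -0.22 in Leydig-like and -0.16 in Sertoli-like nuclei, beside -0.21 and -0.11 for all genes.

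Co-receptor and heparan sulfate genes also differed between classes. Of 5 co-receptor and binding protein genes with enough UMIs, 3 were higher in surface epithelium-like nuclei, where 5.95% of all genes were. These were the adhesion proteins *Flrt1*, *Flrt2* and *Flrt3*, which associate with FGF receptors, with *Flrt1* at 38.9 CPM against 6.84 in the rest, 5.69-fold (4.83 to 6.7), and *Flrt3* at 2.79-fold (2.41 to 3.22). *Flrt2* was highest in mesonephric mesenchyme-like nuclei at 946 CPM against 171 in the rest, 5.52-fold (5.3 to 5.75). The list median in surface epithelium-like nuclei was 1.42, with -0.20 for all genes. In germ-like nuclei 4 of the 5 were 2-fold or more lower (*Fgfbp3*, *Flrt1*, *Flrt2* and *Flrt3*), in Leydig-like nuclei 3 (*Flrt1*, *Flrt2* and *Flrt3*) and in Sertoli-like nuclei 1 (*Flrt3*), beside 20.9%, 26.4% and 23.1% of all genes. Of 18 heparan sulfate genes, 5 were higher in progenitor-like nuclei (*Sdc1*, *Sdc3*, *Gpc6*, *Hs6st2* and *Sulf2*), where 4.8% of all genes were, 3 in contractile-like (3.86%) and 3 in surface epithelium-like nuclei (*Sdc2*, *Gpc3* and *Sulf1*, 5.95%). There were 2 each in Sertoli-like (8.25%), mesonephric mesenchyme-like (5.0%) and germ-like nuclei (18.2%) and 1 in Leydig-like nuclei (7.88%). *Sulf1*, which removes sulfate groups that FGFs bind, was 1074 CPM against 112 in the rest, 9.6-fold (9.28 to 9.93), in surface epithelium-like nuclei. The sulfotransferase *Hs6st2* was 3239 CPM against 725 in the rest, 4.47-fold (4.41 to 4.52), in progenitor-like nuclei, and its relative *Hs6st1* 3.91-fold (3.67 to 4.17) in Sertoli-like nuclei. Sertoli-like nuclei had 8 of the 18 genes 2-fold or more lower, germ-like 6 and Leydig-like 6, where 23.1%, 20.9% and 26.4% of all genes were, and the other 4 classes between 1 and 3.

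**Figure D5:**
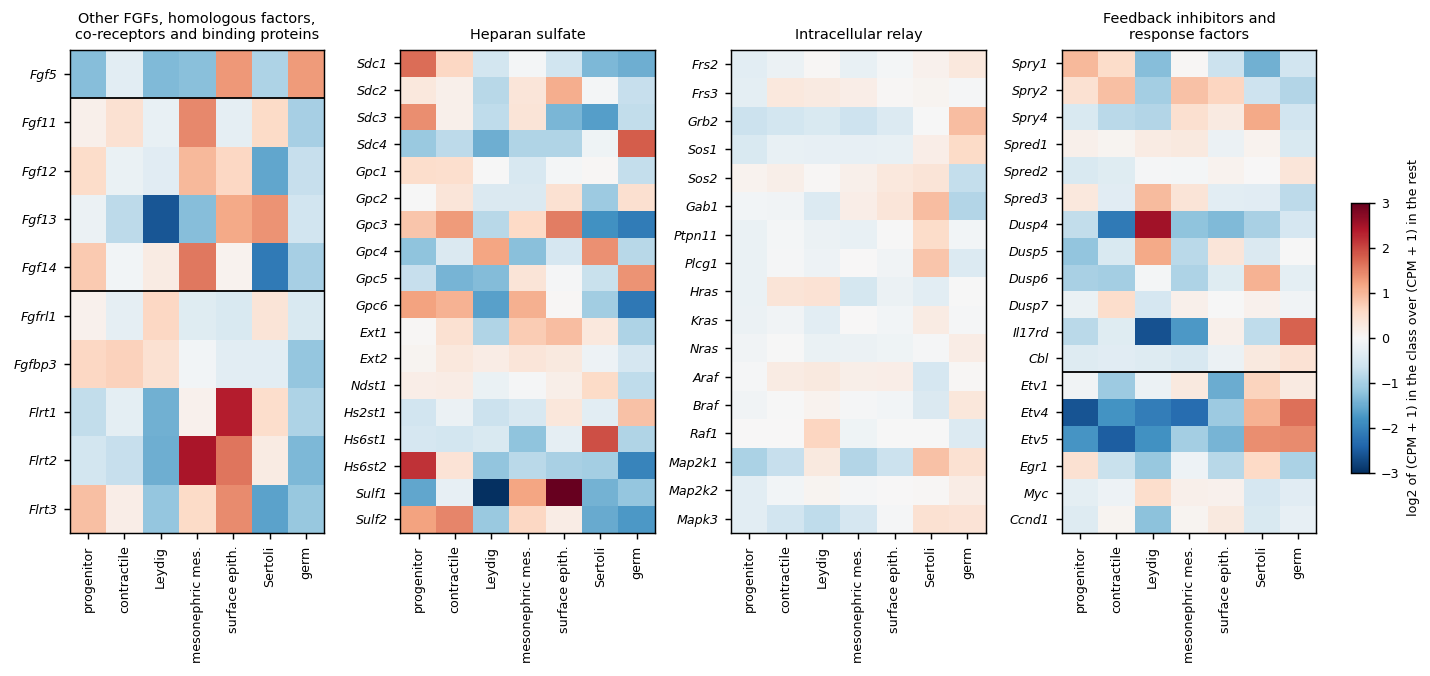
Heat map of log2 of (CPM + 1) in a class over (CPM + 1) in all other kept nuclei, for listed pathway genes with at least 50 UMIs (rows) in 7 classes (columns), red for higher and blue for lower, with colours capped at 3 either way. The relay panel is pale throughout, while Etv4, Etv5, Dusp4, Il17rd, Flrt1, Flrt2, Sulf1 and Hs6st2 stand out in single classes or pairs of classes.

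The genes most alike to the members in level over the 12 classes, among 13473 genes with at least 200 UMIs, were found by Pearson's r of log2 CPM, a description over points that share 1 library. For *Fgf9* they were *Gm29266* (0.94), *Pdgfc* (0.90) and *Rgs6* (0.90), of which *Pdgfc* was also a surface epithelium marker here. For *Fgf10* they were *P3h3* (0.95), *Hoxd9* (0.95) and *Apba1* (0.95), and for *Fgf2* *Serping1* (0.97), *Adamts20* (0.96) and *Mylk* (0.96). For *Fgf1* they were *Grin3a* (0.91), *Axin2* (0.90) and *Gm15155* (0.89), and for *Fgf7* *Ftx* (0.89), *Smarcd1* (0.86) and *Dynll2* (0.85). Among receptors they were *Bdh2* (0.95), *Dchs1* (0.95) and *Vangl2* (0.94) for *Fgfr1*, *Mgat4c* (0.88), *Ogt* (0.87) and *Car10* (0.87) for *Fgfr2*, *Gm28258* (0.94), *Tspan9* (0.94) and *Fblim1* (0.93) for *Fgfr3* and *Hhip* (0.95), *Robo2* (0.95) and *Acaa2* (0.95) for *Fgfr4*. *Fgf18* had too few UMIs for this comparison.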

How the data were processed

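By the submitters' processing notes, the authors ran Cell Ranger ARC 2.0.1 on mm10, and the deposited matrix holds raw counts, of RNA molecules for genes and of cuts for peaks, in barcodes called as nuclei. The deposited fragment list gives each unique fragment with its count of read pairs, 1.09 on average. The deposited values are not normalized. The sources used here do not state strand handling.

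Of the barcodes, 7668 met limits on mitochondrial and ribosomal UMIs (below 10%), haemoglobin UMIs (below 0.5%), genes (more than 500) and fragments at peaks (more than 20%, and 250 to 25000 in number), and the 470 with the highest Scrublet scores (Scanpy 1.11.5) were removed by rank, which leaves some doublets. Scrublet's automatic threshold marked 17.5%. Clusters came from Seurat 5.3.0 (R 4.3.3) weighted nearest neighbours over 2000 variable genes and over the peaks, 30 components each, without the 90 FGF pathway genes and the 374 peaks within 100 kb of members. A resolution of 0.3 had been chosen at the outset but left the largest cluster unnamed, so 0.6 was used throughout and 0.3 became an alternative. A cluster took the class with the highest mean z score of its markers, and stayed unnamed if another class led its 10 top genes. Members, gene lists and markers were chosen with earlier results of these data known.

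Levels are class sums of UMIs per class total (CPM), with exact Poisson intervals for levels, exact conditional binomial intervals for ratios and Clopper-Pearson intervals for shares. No p-value was computed, since nuclei do not replicate a condition. Ratios needed 50 UMIs. Background RNA was the median level of other classes' markers with at least 100 UMIs, relative to all nuclei, times the gene's overall level. List medians used a pseudocount of 1 CPM. Promoter windows took the principal start site of GENCODE M21. Fragments, not cuts, were counted there, and 50 were needed. For each member the peak with at least 100 cuts and the largest ratio in the class of highest RNA was named, and of each list the 3 genes with the largest ratio. One listed gene is not reported here. Calls were tested on simulated counts, and no outcome of that is given here. Motif words and 2 alternatives were chosen after the data were seen.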

Additional observations from a re-analysis of the deposited data

How the results depend on the processing

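No paired analysis was possible because each assay had 1 library. Over the 7 large classes, 16 combinations of member and class were 2-fold higher than the rest as reported. This became 10 at resolution 0.3, where the largest cluster is unnamed, 25 at a fold of 1.5 and 6 at a fold of 3, and stayed within 1.5 times under the other alternatives. Single class ratios stayed at 2-fold in 211 of 228 recomputations and the ratios between 2 classes in 101 of 103, and none changed direction. Settings in which a class was not named, such as contractile-like nuclei with clusters from RNA alone, are not in these totals. The count of 6 between progenitor-like and Leydig-like nuclei ran from 4 to 7. The count of 2 between Sertoli-like and germ-like nuclei became 4 with Scrublet's automatic threshold, 4 with nuclei of at most 50000 UMIs, 4 without the deepest germ-like cluster, 6 with background subtracted, 5 with a mean of CPM per nucleus, 1 at 200 UMIs and 5 at a fold of 1.5. The count of 1 between contractile-like and progenitor-like nuclei was 2 with no doublet removal, the automatic threshold, at most 50000 UMIs, ATAC alone, background subtracted, a mean of CPM per nucleus or 20 UMIs, 3 with stricter minimums, 4 at a fold of 1.5 and 0 at a fold of 3. Thinned to 1000 and 4000 UMIs, shares were 11.6% and 37.4% for *Fgf9* in surface epithelium-like and 3.11% and 8.45% in Sertoli-like nuclei, 8.01% and 21.9% for *Fgf10* in progenitor-like nuclei, 21.2% and 52.1% for *Fgfr1* in mesonephric mesenchyme-like nuclei, and 79.1% and 97.5% for *Fgfr2* in supporting-like and 42.2% and 84.5% in Leydig-like nuclei. The 1 promoter combination became 0 with a window of 500 bp, 3 with cuts in deposited peaks and 2 with classes from both assays. Causes were not tested where none is named. *Fgf7*, *Fgf18* and *Fgfr3*, with 193 to 429 UMIs, and the classes under 100 nuclei are limited by depth.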

Other observations

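Few other FGF genes were read. Of 12 further secreted ligands, 11 had under 50 UMIs, and *Fgf5*, a ligand best known for limiting hair growth, was 3.07 CPM against 0.691 in the rest, 4.45-fold (2.94 to 6.81), in germ-like nuclei and 3.79-fold (2.27 to 6.09) in surface epithelium-like nuclei. Of the 4 intracellular FGF homologous factors, which bind sodium channels rather than receptors, *Fgf11*, *Fgf12* and *Fgf14* were higher in mesonephric mesenchyme-like nuclei, at 3.28-fold (2.19 to 4.76), 2.0-fold (1.72 to 2.32) and 3.21-fold (2.57 to 3.96), where 5.0% of genes were, and *Fgf13* was 0.407-fold (0.324 to 0.505) there, where 23.2% of genes were 2-fold lower. In supporting-like nuclei *Fgf12* was 169 CPM against 30.1 in the rest, 5.61-fold (4.81 to 6.52), and *Fgf14* 37.3 CPM against 10.4 in the rest, 3.57-fold (2.54 to 4.89). *Fgf13* was higher in Sertoli-like nuclei, at 139 CPM against 53.8 in the rest, 2.59-fold (2.43 to 2.75), and in surface epithelium-like nuclei, at 2.23-fold (2.06 to 2.41), and was 0.157-fold (0.126 to 0.192) in Leydig-like nuclei.

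Among the smaller classes, pericyte-like nuclei had 5 of 12 feedback inhibitors 2-fold or more higher than the rest (*Spry1*, *Spry2*, *Spry4*, *Dusp4* and *Dusp6*), where 7.0% of genes were, and *Il17rd* 2-fold lower, where 27.5% were, with a list median of 0.59 on the log2 scale beside -0.25 for all genes. Endothelial-like nuclei had 3 of 6 response factors higher with intervals above 1 (*Etv4*, *Egr1* and *Ccnd1*), where 5.5% of genes were 2-fold higher. *Myc* was also above 2-fold there on 4 UMIs, at 2.38-fold (0.627 to 6.46), and *Etv5* was 0.505-fold (0.374 to 0.667). Endothelial-like nuclei had 92.6 CPM (80.5 to 106) of *Fgfr1* and 229 CPM (209 to 249) of *Fgfr2*, and 0 of 10 members reached 2-fold over the rest, where 5.5% of genes did, while 3 were 2-fold lower (16% of genes), *Fgf7* within counting error. Immune-like nuclei had 0 members 2-fold higher (11.2% of genes), 2 lower (23.1%; *Fgfr3* within counting error) and 0 above background beyond counting error, the last not counted over all genes. Erythroid-like nuclei, with 406226 UMIs in all, had 0 (15.4%), with 8 members 2-fold lower (38.5% of genes), of which *Fgf18*, *Fgf1*, *Fgfr3* and *Fgfr4* had ratio intervals that held 1, and no UMI of *Fgf9*, *Fgf10*, *Fgf18*, *Fgf1* or *Fgfr3*, which allows up to 7.39 CPM by the limit of 3 counts and 9.08 CPM by the exact interval used elsewhere.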
